A study of Urocitellus parryii with 3 samples.

Results

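The miR-200 family was followed in small RNA libraries from livers of Urocitellus parryii, the arctic ground squirrel, a hibernator whose winter torpor is broken by short arousals. Its members here were miR-200a-3p, miR-200b-3p and miR-429-3p, taken as every distinct read that shared the first 18 bases with the mammalian mature miRNA and counted once per stage. They came to 452 of 17086590 reads and to 113 of 576915 distinct reads. The early arousal library held 102 of these reads, the late torpor library 117 and the post-reproduction library 233.

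The early arousal and late torpor libraries were each made from the mixed liver RNA of 4 hibernating animals, and the post-reproduction library from 6 summer animals that were not hibernating. Hibernating animals were kept at 4 h light and 20 h dark and had passed through at least 4 torpor bouts, and the labels give sampling on day 4 of a bout without saying how that day applies to early arousal. Post-reproduction animals were at 16 h light and 8 h dark, and the labels give anaesthesia before sampling for them alone, so hibernation, light cycle and anaesthesia cannot be told apart in any comparison with them. With 14 animals in 3 pooled libraries there was no replicate, so no test between stages was made and every ratio compares libraries, not stages. Intervals are 95% and cover counting error only, since each stage is 1 pooled library. The reads carry no molecular identifiers, so copies made by PCR count as separate reads and the intervals may be too narrow.

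miRNAs are short RNAs that guide silencing complexes to messenger RNAs, mainly through the seed, bases 2 to 8 of the miRNA. The miR-200 family is abundant in epithelia, where it represses ZEB1 and ZEB2, the repressors of E-cadherin, and so takes part in keeping cells epithelial. In mammals miR-200b, miR-200a and miR-429 come from one gene cluster and miR-200c and miR-141 from another, and in the liver of mice and humans the family is best known from the epithelium of the bile ducts.

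The sequences below carry the comparison of the members, and the seed is in capitals. For each member the 22-base form was the most frequent run of 22 bases among its reads, and for miR-200a-3p and miR-200b-3p the most frequent insert, the part of the read before the sequencing adapter, is also shown. The 22-base forms are those of the mature mouse miRNAs as known in general, not checked against a database. Letters are DNA letters, as deposited.
miR-200a-3p, 22-base form: tAACACTGtctggtaacgatgt
miR-200a-3p, most frequent insert: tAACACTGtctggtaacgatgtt
miR-200b-3p, 22-base form: tAATACTGcctggtaatgatga
miR-200b-3p, most frequent insert: tAATACTGcctggtaatgatgaca
miR-429-3p, 22-base form and most frequent insert: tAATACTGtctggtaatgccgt

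miR-200b-3p and miR-429-3p share the seed AATACTG, and miR-200a-3p has the seed AACACTG. Counted from the 5′ end and with the base of miR-200b-3p first, miR-200a-3p differed from it by T4C, C9T, T17C and A22T, of which T4C lies in the seed. miR-429-3p differed from miR-200b-3p by C9T, A19C, T20C and A22T, none of them in the seed. Reads with the miR-200a-3p seed numbered 324 over the 3 libraries, and reads with the seed of the other members numbered 128.

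The data that the counts rest on were of similar depth. The libraries held between 5611673 and 5860476 placed reads, of which 92.2% to 94.8% matched 1 of 143 miRNAs searched, and 112 of these miRNAs had reads. The hepatocyte miRNA miR-122-5p took 78.6% to 80.4% of the matched reads. Levels are given as counts per 1000000 matched miRNA reads (CPM) after trimmed mean of M-values scaling, so that 1 read is worth 0.183 CPM in early arousal, 0.190 CPM in late torpor and 0.190 CPM in post-reproduction.

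miR-200a-3p, the most abundant member, was lower in both hibernation-season libraries. Its level was 13.0 CPM in early arousal (71 reads, interval 10.2 to 16.4), 15.8 CPM in late torpor (83 reads, 12.6 to 19.6) and 32.4 CPM in post-reproduction (170 reads, 27.7 to 37.6). Neither interval of the hibernation season overlapped that of post-reproduction, while those of early arousal and late torpor overlapped. Intervals of counting error are narrow for abundant miRNAs, so small differences also keep them apart. The summed arms of miR-122, for example, had a ratio of 0.929 (0.928 to 0.930) for early arousal over post-reproduction. How many of all miRNAs had intervals apart was not counted, so the separation is not shown to be particular to the members. For miR-200a-3p the ratio of late torpor to post-reproduction was 0.488 (0.371 to 0.638) and that of early arousal to post-reproduction was 0.402 (0.300 to 0.533). These ratios share the post-reproduction library and are not independent of each other. The ratio of early arousal to late torpor, 0.823 (0.591 to 1.14), had an interval that included 1. That reading depends on the scaling. An alternative chosen after seeing the data took its factors from 824 starts of 18 bases with at least 100 reads, named or not. With it the log2 ratio was -0.60 (-1.08 to -0.13). Below, all read starts means these 824.

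miR-200b-3p, which shares the gene cluster but not the seed of miR-200a-3p, had the same order of levels over the libraries at lower counts. It stood at 4.39 CPM in early arousal (24 reads, 2.82 to 6.54), 5.71 CPM in late torpor (30 reads, 3.85 to 8.15) and 11.2 CPM in post-reproduction (59 reads, 8.55 to 14.5). The intervals of the hibernation-season libraries again lay below that of post-reproduction and overlapped each other. Late torpor over post-reproduction gave a ratio of 0.508 (0.316 to 0.802), early arousal over post-reproduction 0.391 (0.233 to 0.639) and early arousal over late torpor 0.770 (0.431 to 1.36).

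miR-429-3p was near the limit of detection and showed no difference that its counts could resolve. It had 7 reads in early arousal (1.28 CPM, 0.515 to 2.64), 4 in late torpor (0.761 CPM, 0.207 to 1.95) and 4 in post-reproduction (0.761 CPM, 0.207 to 1.95). A ratio of 1.68 for early arousal over late torpor had an interval of 0.428 to 7.84, and that of late torpor over post-reproduction, 1.0, one of 0.186 to 5.37. For early arousal over post-reproduction the ratio was 1.68 (0.428 to 7.84). Each of these intervals included 1.

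**Figure D1:**
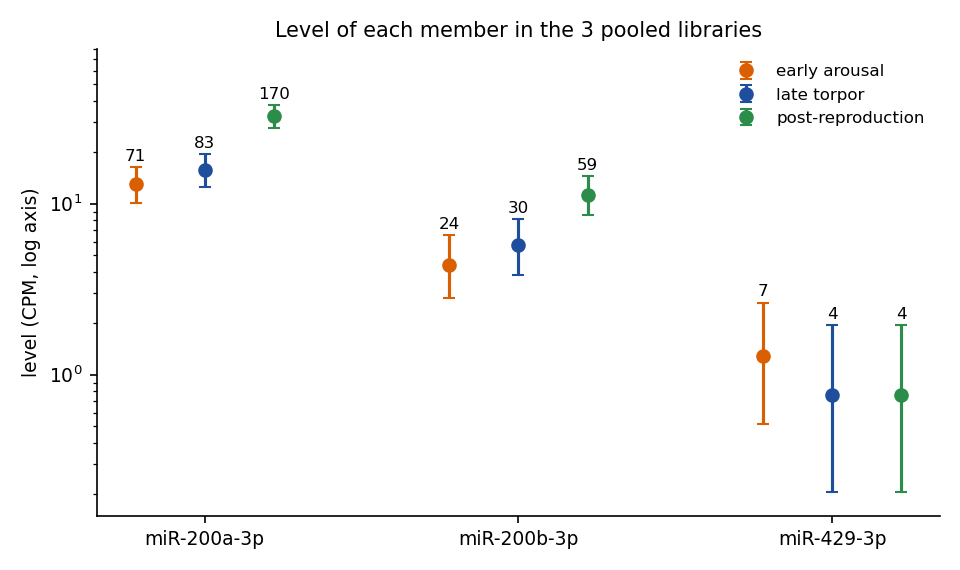
Level of each member in CPM on a log axis, with the early arousal, late torpor and post-reproduction libraries from left to right. Points are single pooled libraries, bars are exact Poisson 95% intervals of the count and the numbers are reads. For miR-200a-3p (71, 83 and 170 reads) and miR-200b-3p (24, 30 and 59 reads) both hibernation-season points lie below the post-reproduction interval, and for miR-429-3p (7, 4 and 4 reads) all intervals overlap.

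Summed over the members, the family stood at 18.7 CPM in early arousal, 22.3 CPM in late torpor and 44.4 CPM in post-reproduction. The ratio of late torpor to post-reproduction was 0.502 (0.398 to 0.629) and that of early arousal to post-reproduction 0.421 (0.330 to 0.534). Early arousal over late torpor gave 0.839 (0.637 to 1.10). On the log2 scale this was -0.25, and it was -0.57 (-0.97 to -0.18) with scaling over all read starts and -0.48 (-0.94 to -0.017) with only distinct reads found in all libraries, where the intervals excluded 0. In bulk liver RNA, fewer cells of a type and less RNA per cell cannot be told apart.

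The make-up of the family was close in the 3 libraries. miR-200a-3p took 69.6% of the family's reads in early arousal (59.7% to 78.3%), 70.9% in late torpor (61.8% to 79.0%) and 73.0% in post-reproduction (66.8% to 78.6%). The share of miR-200b-3p was 23.5% in early arousal (15.7% to 33.0%), 25.6% in late torpor (18.0% to 34.5%) and 25.3% in post-reproduction (19.9% to 31.4%). miR-429-3p made up 6.86% in early arousal (2.80% to 13.6%), 3.42% in late torpor (0.939% to 8.52%) and 1.72% in post-reproduction (0.470% to 4.34%). For each member the 3 intervals overlapped.

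Against the other miRNAs, miR-200a-3p lay near the low end of both comparisons with post-reproduction. It was the one member with at least 100 reads over both libraries in any comparison. Of the 83 miRNAs with that many reads, 2 were at least 2-fold lower in late torpor than in post-reproduction (2.41%), miR-200a-3p and miR-10a-5p. In early arousal against post-reproduction 3 of 82 were (3.66%), miR-486-5p, miR-200a-3p and miR-184-3p. Counted from the lowest log2 ratio, miR-200a-3p took place 2 in each of these comparisons, at -1.03 where the median of all was -0.05 with an SD over miRNAs of 0.39, and at -1.32 where the median was 0.01 and the SD 0.48. The 2-fold call in late torpor sat at the limit: the log2 ratio was -0.997 under median-of-ratios scaling and -0.93 when the scaling used all read starts. It was -0.98 with the adapter required, -0.91 without reads seen once, -0.89 with only distinct reads found in all libraries and -0.49 with identical reads only. At 1.5-fold, 6.02% were lower and 4.82% higher in late torpor, and 9.76% lower and 6.1% higher in early arousal, where 1.22% were at least 2-fold higher.

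Within the hibernation season, miR-200a-3p did not reach 1.5-fold, except at log2 ratios of -0.60 with scaling over all read starts and -0.79 with identical reads only. In early arousal over late torpor its log2 ratio of -0.28 was place 13 of 83 from the lowest, where 7.23% were at least 1.5-fold lower and 6.02% at least 1.5-fold higher. The ratios of miR-200b-3p, from 54 to 89 reads a comparison, lay close to those of miR-200a-3p in all 3, at log2 values of -0.38, -0.98 and -1.35.

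**Figure D2:**
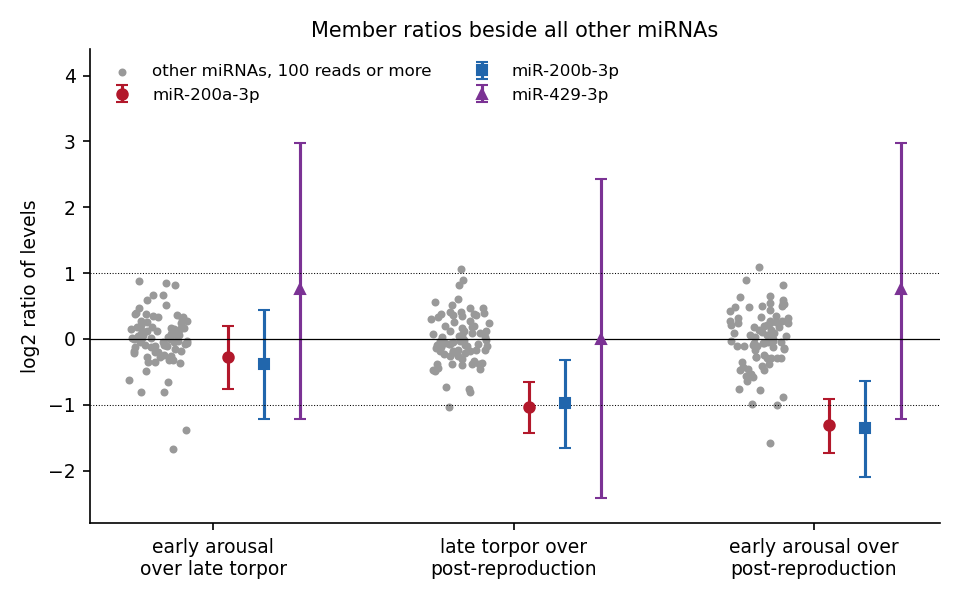
Log2 ratios for early arousal over late torpor, late torpor over post-reproduction and early arousal over post-reproduction, with each other miRNA of at least 100 reads as a grey point and the members as coloured points with exact 95% intervals. Dotted lines mark 2-fold. In both comparisons with post-reproduction miR-200a-3p (-1.03 and -1.32) and miR-200b-3p (-0.98 and -1.35) lie at the lower edge of the grey points, and the bars of miR-429-3p span most of the axis.

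Reads identical to the 22-base form were a minority of each member except in late torpor for miR-429-3p, where they were 3 of 4. For miR-200a-3p they were 9 of 71 in early arousal (12.7%, 5.96% to 22.7%), 15 of 83 in late torpor (18.1%, 10.5% to 28.0%) and 21 of 170 in post-reproduction (12.4%, 7.81% to 18.3%). For miR-200b-3p they were 2 of 24 in early arousal, 5 of 30 in late torpor and 4 of 59 in post-reproduction, 9.73% over all libraries (4.96% to 16.8%). miR-429-3p had 2 of 7 in early arousal, 3 of 4 in late torpor and 1 of 4 in post-reproduction.

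Variant reads, meaning all reads not counted as identical, were the larger class, and for the family their ratios were close to those of all reads. They include reads in which no adapter was found, so that the end of the insert is not known. Such reads were 18 of 324 for miR-200a-3p, 5 of 113 for miR-200b-3p and 1 of 15 for miR-429-3p. Over the family, variant reads numbered 89 in early arousal, 94 in late torpor and 207 in post-reproduction, with a ratio of 0.454 (0.352 to 0.582) for late torpor and 0.414 (0.319 to 0.533) for early arousal over post-reproduction. Identical reads numbered 13 in early arousal, 23 in late torpor and 26 in post-reproduction. Their ratio for early arousal over post-reproduction, 0.481 (0.227 to 0.970), was close to that of the variants. For late torpor over post-reproduction it was 0.884 (0.482 to 1.61), with an interval that included 1 and lay above the variant ratio of 0.454, while the interval of the variants overlapped it. For early arousal over late torpor identical reads gave 0.544 (0.253 to 1.12) and variant reads 0.911 (0.674 to 1.23). Identical reads made up 12.7% of the family's reads in early arousal (6.96% to 20.8%), 19.7% in late torpor (12.9% to 28.0%) and 11.2% in post-reproduction (7.42% to 15.9%). The late torpor share was the highest, and the 3 intervals overlapped.

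For single members the identical reads were few. miR-200a-3p had a ratio of 0.714 (0.342 to 1.45) in late torpor over post-reproduction and of 0.412 (0.166 to 0.939) in early arousal over post-reproduction from identical reads, and of 0.456 (0.337 to 0.612) and 0.400 (0.293 to 0.542) from variant reads. The identical reads of miR-200b-3p gave 1.25 (0.269 to 6.30) for late torpor over post-reproduction, from 5 and 4 reads, against 0.454 (0.271 to 0.742) from its variant reads.

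Most variant reads were longer than the 22-base form at the 3′ end. Where the adapter was found, inserts of 23 bases or more made up 80.7% of miR-200a-3p reads (247 of 306, 75.8% to 85.0%) and 87.0% of miR-200b-3p reads (94 of 108, 79.2% to 92.7%). Among the 86 miRNAs with at least 100 such reads the median share was 34.3%, and these shares were place 11 and place 6 from the highest. miR-429-3p had 6 of 14 (42.9%, 17.7% to 71.1%).

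The members differed in which longer form led. In miR-200a-3p the 23-base insert was the most frequent, with 48.7% of reads (43.0% to 54.4%) against 29.4% for 24 bases (24.4% to 34.9%). miR-200b-3p was led by 24 bases, with 60.2% (50.3% to 69.5%) against 25.9% for 23 bases (18.0% to 35.2%). Each library had this order for each of the 2 members. For miR-200a-3p the 23-base share was 49.2% in early arousal, 45.7% in late torpor and 50.0% in post-reproduction. The 24-base share of miR-200b-3p was 71.4% in early arousal, 58.6% in late torpor and 56.9% in post-reproduction, with overlapping intervals.

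**Figure D3:**
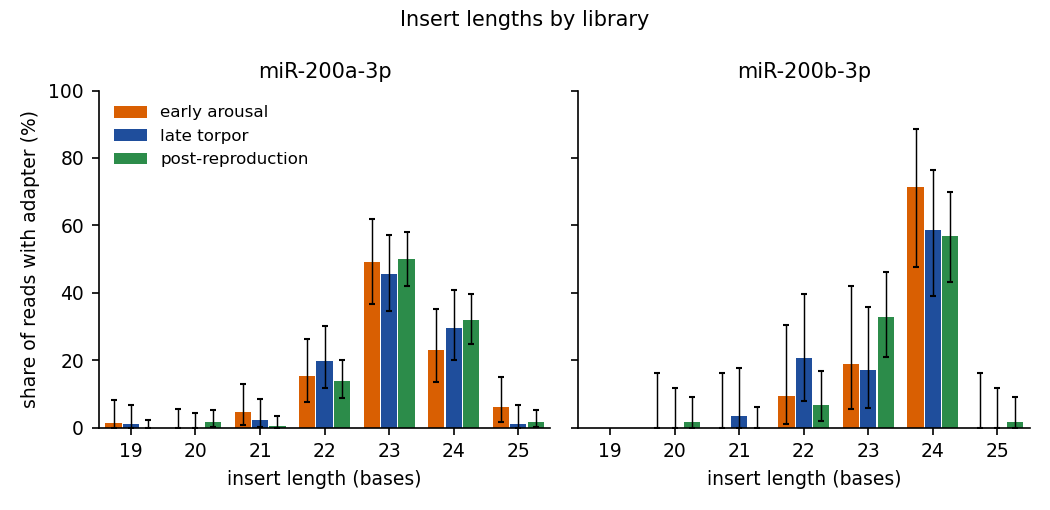
Share of reads with each insert length in bases among reads in which the adapter was found, for miR-200a-3p and miR-200b-3p, with early arousal, late torpor and post-reproduction bars from left to right and exact 95% intervals. In all 3 libraries the tallest bar is at 23 bases for miR-200a-3p (45.7% to 50.0%) and at 24 bases for miR-200b-3p (56.9% to 71.4%).

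The bases at these ends are shown with the last base in capitals in place of the seed where it was not placed on the scaffold. In miR-200a-3p base 23 was the T of the scaffold, and base 24, a C there, was read as T in 60 reads and as A in 17. In miR-200b-3p base 23 was the C of the scaffold, and base 24, a G there, was read as A in 35 reads and as T in 20. The scaffold's own base 24 was read in 2 reads of miR-200a-3p and in 5 of miR-200b-3p.
miR-200a-3p, 24 bases ending in T: taacactgtctggtaacgatgttT
miR-200b-3p, 24 bases ending in A: taatactgcctggtaatgatgacA
miR-200b-3p, 24 bases ending in T: taatactgcctggtaatgatgacT

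Of these A or T ends, A made up 22.1% in miR-200a-3p (13.4% to 33.0%) and 63.6% in miR-200b-3p (49.6% to 76.2%), and the intervals did not overlap. In miR-200b-3p the share of A was 11 of 14 in early arousal (78.6%, 49.2% to 95.3%), 10 of 14 in late torpor (71.4%, 41.9% to 91.6%) and 14 of 27 in post-reproduction (51.9%, 31.9% to 71.3%). In miR-200a-3p it was 2 of 14 in early arousal (14.3%, 1.78% to 42.8%), 2 of 18 in late torpor (11.1%, 1.38% to 34.7%) and 13 of 45 in post-reproduction (28.9%, 16.4% to 44.3%). Within each member the library intervals overlapped. Bases that were not placed can be additions to the RNA, sequencing errors or differences between the animals and the scaffolds. Which of these they are was not tested.

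Counted over any kind of unplaced end, 37.3% of miR-200a-3p inserts (31.8% to 42.9%) and 63.9% of miR-200b-3p inserts (54.1% to 72.9%) ended in a base outside the placed part. The median over the 86 miRNAs was 29.4%, and these shares were place 33 and place 9 from the highest. All 14 inserts of miR-429-3p had such an end, because the scaffolds match this miRNA over 18 bases only.

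The first base varied more in miR-200b-3p than in miR-200a-3p. Starts 1 or 2 bases later, which move the seed, made up 32.7% of reads at the miR-200b-3p position (55 of 168, 25.7% to 40.4%) and 7.16% at the miR-200a-3p position (25 of 349, 4.69% to 10.4%). Over 87 miRNAs the median share of starts 1 or 2 bases earlier or later was 1.20%. By that share miR-200b-3p was place 5 and miR-200a-3p place 16 from the highest. No read started 1 or 2 bases earlier at either position.

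The shifted reads of miR-200b-3p were split between 27 reads that began 1 base later and 28 that began 2 bases later, and their most frequent inserts show how the seed, in capitals, moves.
miR-200b-3p, start 1 base later: aATACTGCctggtaatgatgact
miR-200b-3p, start 2 bases later: aTACTGCCtggtaatgatgactt
miR-200a-3p, start 1 base later: aACACTGTctggtaacgatgtta

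The share of other starts at miR-200b-3p was 33.3% in early arousal (12 of 36), 33.3% in late torpor (15 of 45) and 32.2% in post-reproduction (28 of 87). At miR-200a-3p it was 11.3% in early arousal (9 of 80, 5.28% to 20.3%), 5.68% in late torpor (5 of 88, 1.87% to 12.8%) and 6.08% in post-reproduction (11 of 181, 3.07% to 10.6%). These shares did not separate the libraries. With the shifted reads counted in, the log2 ratio of miR-200b-3p was -0.95 (-1.50 to -0.42) in late torpor and -1.33 (-1.93 to -0.75) in early arousal over post-reproduction. For miR-429-3p no later start could have been listed, since its placed part ends at base 18 and 18 bases are the fewest the table holds, and no read began 1 or 2 bases earlier.

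**Figure D4:**
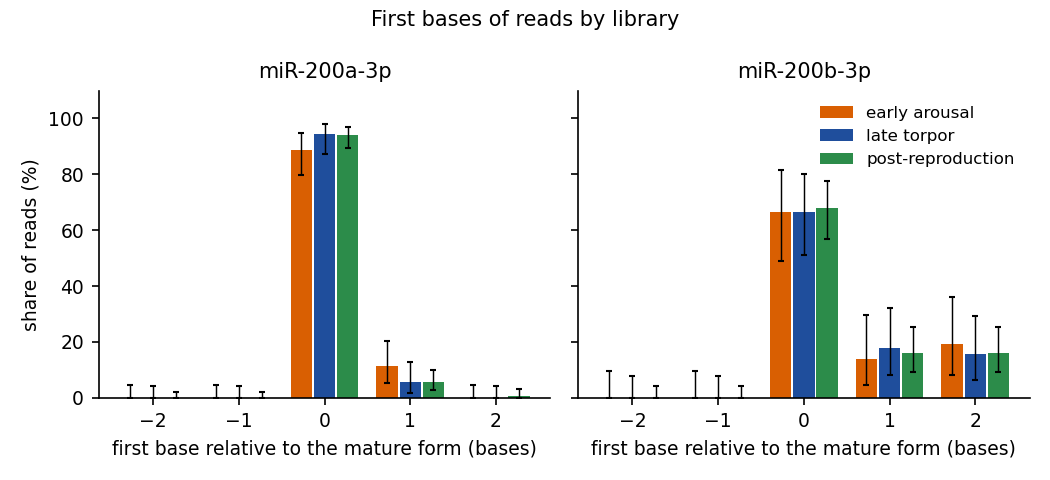
Share of reads by first base relative to the mature form, in bases, at the positions of miR-200a-3p and miR-200b-3p, with early arousal, late torpor and post-reproduction bars from left to right and exact 95% intervals. Later starts make up 32.2% to 33.3% at miR-200b-3p and 5.68% to 11.3% at miR-200a-3p.

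All reads of miR-200a-3p and of miR-200b-3p had a single position, on the same scaffold and strand. miR-200a-3p was at scaffold 150529, bases 3914 to 3935 of the minus strand, and miR-200b-3p at bases 4661 to 4682 of the same strand, so miR-200b-3p lies upstream and their first bases are 747 bases apart. The genome build is not given in the sources used here, and no gene annotation of the scaffold was used. All 15 reads of miR-429-3p were placed elsewhere, at 18 bases on each of 2 other scaffolds, GeneScaffold 3998 (35662 to 35679, minus strand) and scaffold 2886 (119354 to 119371, minus strand). None of them was placed past base 18, so neither position holds the full miRNA. Of the 15 reads, 14 carried the miR-429-3p bases at 19 to 22, and 1 post-reproduction read carried those of miR-200b-3p there, which the 18-base rule cannot sort.

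The partner strand of the miR-200b hairpin was also read. Reads from the 5′ arm of miR-200b began 36 or 35 bases upstream of miR-200b-3p and numbered 2 in early arousal (0.366 CPM, 0.0443 to 1.32), 5 in late torpor (0.951 CPM, 0.309 to 2.22) and 13 in post-reproduction (2.47 CPM, 1.32 to 4.23). The ratio of early arousal to post-reproduction was 0.148 (0.0162 to 0.654) and that of late torpor to post-reproduction 0.384 (0.107 to 1.15), so this arm was also lower in the early arousal library. Its most frequent insert, with the bases 2 to 8 in capitals, had 0 reads in early arousal, 2 in late torpor and 3 in post-reproduction.
miR-200b 5′ arm: cATCTTACtgggcagcattgg
At the 5′ arm of miR-200a no read was found on the strand of the miRNA. The limit set for a count of 0 was 3 reads, 0.549 CPM in early arousal, 0.571 CPM in late torpor and 0.571 CPM in post-reproduction.

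**Figure D5:**
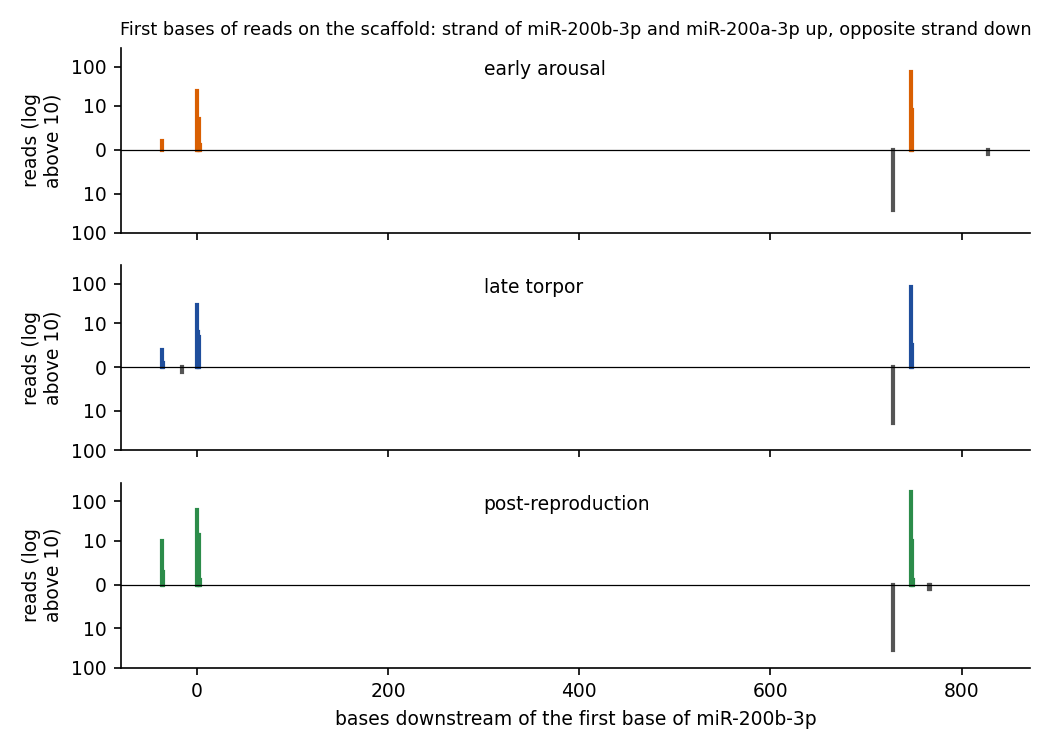
First bases of all reads placed on the scaffold of miR-200b-3p and miR-200a-3p, by distance in bases downstream of the first base of miR-200b-3p, in early arousal, late torpor and post-reproduction from top to bottom. Lines up are reads on the strand of the miRNAs and lines down reads on the opposite strand, linear to 10 reads and logarithmic beyond. Reads gather at miR-200b-3p (0 to 2), its 5′ arm (-36), miR-200a-3p (747) and a position on the opposite strand at 728.

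The members of the second cluster were nearly without reads. miR-200c-3p, which has the seed of miR-200b-3p, had none in any library, and miR-141-3p, which has that of miR-200a-3p, had 1 in post-reproduction and none in the other libraries. By the same 18-base rule the 5′ arms of miR-429, miR-200c and miR-141 had none. A count of 0 allows up to 3 reads, 0.549 to 0.571 CPM, and the table holds placed reads only, so it does not tell a miRNA without reads from one without a place on the scaffolds.

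Beside the 3 members, 9 other miRNAs known from epithelia were counted, among them miR-200c-3p and miR-141-3p of the second cluster. Of these 9, 6 had no reads, as had 31 of the 143 miRNAs searched. Those with reads were miR-31-5p, which is found in epithelia and in other tissues, miR-183-5p with 3 reads in early arousal, 1 in late torpor and 0 in post-reproduction, and the 1 read of miR-141-3p. miR-31-5p was higher in the hibernation season, at 438 CPM in early arousal, 402 CPM in late torpor and 325 CPM in post-reproduction, opposite in direction to miR-200a-3p and miR-200b-3p. The epithelial label of the family rests on what is known of its members and not on the other markers. Counts of 0 among placed reads cannot check it.

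Markers of other cell types differed between the libraries too. The 3 red cell miRNAs were miR-451a, miR-486-5p and miR-144-3p. They summed to 140 CPM in early arousal, 303 CPM in late torpor and 183 CPM in post-reproduction. Their median log2 ratio was -0.78 for early arousal and 0.89 for late torpor over post-reproduction. In early arousal over post-reproduction they were split, with miR-451a higher at 0.26, miR-144-3p at -0.78 and miR-486-5p lower still. The 6 leukocyte miRNAs summed to 78.5 CPM in early arousal, 113 CPM in late torpor and 78.2 CPM in post-reproduction, and miR-142-5p led them. The 4 with reads in both libraries of a comparison had medians of -0.72 in early arousal and -0.16 in late torpor over post-reproduction, where the summed ratios were 1.004 and 1.45, so median and sum went apart in both. Of the 6 mesenchymal and stellate miRNAs, 5 had reads, led by miR-199a-3p and miR-143-3p. They summed to 4545 CPM in early arousal, 3533 CPM in late torpor and 4303 CPM in post-reproduction. Their medians were 0.27 in early arousal and -0.31 in late torpor over post-reproduction. In early arousal miR-143-3p was at 0.27 and miR-199a-3p at -0.10. The endothelial pair miR-126-3p and miR-126-5p summed to 32.4 CPM in early arousal, 38.1 CPM in late torpor and 29.5 CPM in post-reproduction. Their medians were 0.03 in early arousal, from -0.25 for miR-126-3p and 0.31 for miR-126-5p, and 0.37 in late torpor. Of 6 hepatocyte miRNAs, 4 were at 0 (miR-192-5p, miR-194-5p, miR-148a-3p and miR-885-5p), and both arms of miR-122 had medians of 0.22 in early arousal and 0.08 in late torpor. Their summed ratio in early arousal over post-reproduction was 0.929, opposite in sign to the median. The same medians over all miRNAs were 0.01 in early arousal and -0.05 in late torpor. The part of any of these cell types in the family's levels was not tested.

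The miRNAs whose pattern over the 3 libraries was most like that of miR-200a-3p were miR-200b-3p, miR-152-3p, miR-10a-5p, miR-184-3p and miR-378a-3p. Likeness is the distance between log2 CPM values centred on their own mean, over the 86 miRNAs that had reads in every library and 100 or more of them in total, and was 0.07 for miR-200b-3p and 0.24 for miR-152-3p. miR-200b-3p had miR-200a-3p nearest and then the same 4 miRNAs. It had 24 to 59 reads a library, so counting error alone could change these distances and their order. miR-152-3p, of the miR-148 and miR-152 family, had 490 CPM in early arousal, 560 CPM in late torpor and 975 CPM in post-reproduction. miR-10a-5p, from a HOX gene cluster, had 62.6 CPM in early arousal, 56.3 CPM in late torpor and 116 CPM in post-reproduction. miR-184-3p had 267 CPM in early arousal, 470 CPM in late torpor and 799 CPM in post-reproduction, and miR-378a-3p, from an intron of PPARGC1B, 2972 CPM, 3162 CPM and 4427 CPM in the same libraries. To the sum of the members the nearest were miR-152-3p, miR-10a-5p, miR-184-3p, miR-378a-3p and miR-140-3p.

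miR-429-3p had other neighbours, miR-181a-5p, miR-181b-5p, miR-151-3p, miR-9-5p and miR-122-3p. The nearest, miR-181a-5p at a distance of 0.08, had 1132 CPM in early arousal, 711 CPM in late torpor and 724 CPM in post-reproduction. With 4 to 7 reads a library, counting error alone could place miR-429-3p elsewhere in this order. Distances over 3 libraries describe these libraries and no more.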

How the data were processed

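Small RNA of 18 to 30 nt was cut from a gel, ligated to adapters and amplified by 15 cycles of PCR, per the labels' protocols. The authors deposited 1 table in which each entry joins a read, its whole-number read count and its stage, with the placed bases in capitals. These deposited counts are not scaled. Placed parts are at least 18 bases, and all reads have 30. Which aligner, genome build and read filters were used is not given in the sources used here.

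A read found at several positions was counted once per stage. Reads were named by their first 18 bases against 143 miRNAs written from general knowledge and not checked against a miRNA database. The members and lists were chosen with earlier results of these data known. Named beside the members are the 3 most abundant miRNAs of a list and the 5 nearest in pattern. miR-10a-5p and miR-486-5p at the 2-fold limit, and the distinct reads with shifted starts, were named after their values were seen.

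The 3′ adapter was sought with up to 1 mismatch in 5 bases and at least 5 bases seen. Scaling factors (trimmed mean of M-values, 30% on ratio and 5% on abundance, coded in Python 3.11.15 and numpy 2.4.6) were 1.06 for early arousal, 0.945 for late torpor and 1.00 for post-reproduction. Ratios have exact conditional binomial and shares exact binomial (Clopper-Pearson) 95% intervals, and levels exact Poisson ones (scipy 1.17.1). matplotlib 3.10.9 drew the figures. The code was tested on simulated data. Alternatives changed the scaling, the read rule and the minimum of reads.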

Additional observations from a re-analysis of the deposited data

How the results depend on the processing

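No paired analysis was possible because each stage is 1 pooled library. The log2 ratios of the members and their sum were recomputed under 13 other settings and 2 more chosen after seeing the data, 177 values in all, of which 169 stayed within the counting interval first obtained. That tally is no measure of stability, since accepting 1 mismatch in the first 18 bases changed no count. The intervals of miR-429-3p were also wide, for example -2.43 to 2.42 for late torpor over post-reproduction. Some of the values that stayed within still changed whether their own interval included 0. Early arousal over late torpor came to exclude it with scaling over all read starts for miR-200a-3p (-0.60) and the sum (-0.57), and with only distinct reads found in all libraries for the sum (-0.48). Late torpor over post-reproduction for miR-200b-3p came to include it with only distinct reads found in all libraries (-0.76, -1.57 to 0.017), and early arousal over post-reproduction for it with identical reads only (-1.06, -4.52 to 1.75). With identical reads only, early arousal over late torpor moved to -0.79 for miR-200a-3p, -1.38 for miR-200b-3p and -0.88 for the sum, and late torpor over post-reproduction to -0.49 for miR-200a-3p and -0.18 for the sum. The direction turned for miR-200b-3p in late torpor over post-reproduction with identical reads only (0.32, from 5 and 4 reads), and for miR-429-3p in early arousal over late torpor with identical reads only and with only distinct reads found in all libraries (-0.64 each, from 2 and 3 reads). The interval of each of these values included 0, and fewer reads enter by construction. Leaving out multiply placed reads left miR-429-3p without a value. Scaling over all read starts moved every log2 ratio by -0.32 in early arousal over late torpor, 0.11 in late torpor and -0.21 in early arousal over post-reproduction, and plain scaling moved early arousal over late torpor by 0.16. Inserts of 23 bases or more kept their shares within the intervals when the adapter had to match fully.

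The background counts rose or stayed the same when less abundant miRNAs entered, and more miRNAs were compared. At a minimum of 20 reads 94 were compared in early arousal over late torpor and 96 in each comparison with post-reproduction. With at least 1 read in each library these numbers were 106 and 105, against 82 or 83 at 100 reads. With a minimum of 20 reads in place of 100, early arousal over late torpor had 9 at least 1.5-fold and 1 at least 2-fold higher, late torpor over post-reproduction 8 at least 1.5-fold lower, and early arousal over post-reproduction 8 at least 1.5-fold higher and 5 at least 2-fold lower. With 1 read in each library, early arousal over late torpor had 12 lower and 12 higher at 1.5-fold, and 6 lower and 3 higher at 2-fold. Late torpor over post-reproduction then had 10 and 10, and 5 and 4, and early arousal over post-reproduction 15 and 13, and 7 and 3. Pooling, the lack of replicates and low counts limit what the libraries can show. In each comparison 2 of the 3 members had under 100 reads over both libraries. The other, miR-200a-3p, had 71 reads in early arousal and 83 in late torpor.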

Other observations

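The opposite strand of the miR-200a hairpin was read at 1 position, facing the 5′ arm that gave no read on the strand of the miRNA. Its 27 distinct reads all began at base 3954 of the plus strand of scaffold 150529 and had no other position. They numbered 26 in early arousal (4.76 CPM, 3.11 to 6.98), 20 in late torpor (3.81 CPM, 2.32 to 5.88) and 35 in post-reproduction (6.66 CPM, 4.64 to 9.27), and all intervals overlapped. The ratio was 0.714 (0.413 to 1.22) for early arousal over post-reproduction, 0.571 (0.312 to 1.02) for late torpor over post-reproduction and 1.25 (0.672 to 2.36) for early arousal over late torpor. Over all libraries these 81 reads came to 25% of the 324 reads of miR-200a-3p. The most frequent inserts are shown because they carry this position, with bases 2 to 8 in capitals.
Opposite strand, 23 bases ending in t: cAGCACTGtctggtaagatgcct
Opposite strand, 22 bases: cAGCACTGtctggtaagatgcc
Opposite strand, 23 bases ending in a: cAGCACTGtctggtaagatgcca
The first had 8 reads in early arousal, 7 in late torpor and 6 in post-reproduction, and the second 1, 3 and 12 in the same libraries. At the 5′ arm of miR-200b the opposite strand had 0 reads in early arousal, 1 in late torpor and 0 in post-reproduction, and at miR-200a-3p itself 0, 0 and 2. No miRNA name is given to these reads.

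Distinct reads seen once were 60 of 73 for miR-200a-3p, 26 of 33 for miR-200b-3p and 3 of 7 for miR-429-3p. Distinct reads found in all 3 libraries numbered 7, 4 and 1.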
